A study of Mus musculus with 4 samples.

Results

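The AP-1 transcription factors of brain vascular-associated cells (BVACs) were followed as 9 genes, Fos, Fosb, Fosl2, Jun, Junb, Jund, Atf3, Maff and Jdp2. They were picked by symbol, and all 9 were found among the 31053 genes of the files. Their mRNA was counted by droplet single-cell RNA sequencing of mouse brain cells enriched with magnetic beads that carry an antibody to CD31, an endothelial surface protein. The study compared 14 days of chronic social defeat (CSD) with home cage (HC) housing in young adult male wild-type C57BL/6 mice, with 2 libraries per condition and the cells of 4 mice pooled in each, 16 mice in all. CSD mice shared a divided cage with an aggressive CD-1 mouse and met it daily without the divider, and HC mice were pair-housed with the divider left in place. Cerebellum, striatum, brainstem and olfactory bulbs were removed, and the remaining brain was dissociated mechanically and with warm collagenase in every group. Single animals cannot be told apart within a pool, so the library was the replicate (n = 2 per condition).

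AP-1 is a family of dimers that bind DNA through a basic leucine zipper. Fos-family proteins (Fos, Fosb, Fosl2) need a partner, usually of the Jun family (Jun, Junb, Jund), while Atf3, Jdp2 and the small Maf protein Maff are relatives that lack a strong activation domain and often repress. Several of these genes are immediate-early genes, transcribed within minutes of a stimulus by factors already in the cell. They are known to respond to shear and cytokines in vessels and to injury in microglia, and they are also known to be induced while tissue is dissociated. The part of dissociation in the levels given here was not tested.

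Upstream sequence is shown for 5 immediate-early members and for Maff, whose CSD difference in capillary endothelial cells (ECs) was the largest of the members, because cyclic AMP response elements (CREs) are a known route to such genes. Each run is the 140 bases before a RefSeq transcript start (build GRCm38.p6), and capitals mark matches on either strand to the short CRE core TGACG, to the full CRE TGACGTCA or to TGACNTCA, a form added after the sequences had been seen. Of the 3 starts listed for Maff the second is shown, the only start of the 3 that held the full CRE. It lies inside the gene but in no annotated exon. The shares of windows given below are for single windows and not for the best of 3. The Fosb and Atf3 runs include 6 and 7 exon bases, and the Jun run overlaps the antisense gene Junos.
Fos, chr12:85473750-85473889, plus strand: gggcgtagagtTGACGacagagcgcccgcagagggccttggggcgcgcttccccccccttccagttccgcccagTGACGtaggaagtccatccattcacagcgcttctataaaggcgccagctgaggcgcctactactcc
Fosb, chr7:19310046-19310185, minus strand: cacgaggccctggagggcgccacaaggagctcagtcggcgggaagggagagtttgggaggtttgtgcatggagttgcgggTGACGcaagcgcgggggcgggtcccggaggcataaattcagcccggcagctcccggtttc
Jun, chr4:95052223-95052362, minus strand: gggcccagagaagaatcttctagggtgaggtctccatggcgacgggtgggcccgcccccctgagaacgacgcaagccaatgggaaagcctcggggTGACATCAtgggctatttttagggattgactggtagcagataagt
Junb, chr8:84978749-84978888, minus strand: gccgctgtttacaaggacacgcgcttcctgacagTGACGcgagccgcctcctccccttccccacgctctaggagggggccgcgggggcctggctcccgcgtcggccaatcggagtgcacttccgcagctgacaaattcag
Atf3, chr1:191183334-191183473, minus strand: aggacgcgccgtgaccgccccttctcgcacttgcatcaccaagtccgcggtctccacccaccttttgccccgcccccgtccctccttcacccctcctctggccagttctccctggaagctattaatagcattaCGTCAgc
Maff, chr15:79347380-79347519, plus strand: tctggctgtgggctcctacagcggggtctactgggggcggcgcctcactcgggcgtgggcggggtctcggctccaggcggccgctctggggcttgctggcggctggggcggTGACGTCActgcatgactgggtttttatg

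The Fos run held the core 129 and 66 bases before the start and a TATAAA box 33 bases before it. Fosb had a core 60 bases upstream, Junb one at 106 bases, and Atf3 one at 7 bases on the opposite strand. Jun had TGACATCA 45 bases upstream, and the Maff run held the full palindrome 29 bases upstream. The Junb window also held TATAAA at the RefSeq start itself. That start lies upstream of the annotated Junb gene, whose minus strand begins at chr8:84978718, so the 106 bases are not counted from it. Among 32851 RefSeq windows of 300 bases, 20.8% held TGACG, 8.83% TGACNTCA, 1.79% TGACGTCA and 13.6% TATAAA, where every full CRE also counts as a core. The AP-1 site TGANTCA, in 7.81% of windows, was found in no member's window. Neither the core nor its longer forms were found in the windows of Fosl2 and Jund, of the first Maff start, or of 2 of the 3 Jdp2 starts, and the third Maff start held TGACATCA and a core. The 140 bases before the start were all annotated exon for Fosl2 and for the first Jdp2 start. For Jund they ended at chr8:70697738, before the annotated gene start at 70698949. These absences are thus not read as promoters without a CRE. These are matches of letters and not measured binding.

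Of 14415 cells kept, 13121 met the marker genes of a cell class, no AP-1 gene being a marker, and 11832 were in the 10 classes with at least 10 cells in every library. The 13121 include 904 ECs that met no endothelial subtype, which were not compared as a class. Between 27297599 and 30361474 unique molecular identifiers (UMIs, 1 per captured mRNA molecule) were counted per library. CSD 2 stood apart in RNA quality, as the limit of 25% mitochondrial UMIs removed 67.1% of its otherwise acceptable barcodes against 32.7% to 43.8% in the other libraries. Library pairs shared 0 to 9 cell barcodes. A level is given in CPM, the UMIs of a gene over all UMIs of the class in that library on the usual depth-normalised scale, and levels of different genes are not compared, because they are not scaled to length. Orders of levels cover these 10 classes. Border-associated macrophages had 5 cells in CSD 2 and stand outside them.

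Fos, the best known partner of Jun, was highest in arterial smooth muscle cells (SMCs). There it had 6168, 6773, 5139 and 8641 CPM in CSD 1, CSD 2, HC 1 and HC 2, with a mean of 6680 ± 1471 (SD, n = 4). Ependymal cells, microglia, arterial ECs, pericytes and venous ECs followed with means from 4787 down to 2958 CPM, and each overlapped its neighbour in this order. Capillary ECs, with 1864, 2359, 1226 and 1727 CPM (mean 1794 ± 466), did not overlap choroid plexus cells, the next class, at 982 ± 169. This gap depended on scaling, as the test of levels given below put these classes at a log2 difference of 0.01 (SE 0.12). Astrocytes (688 ± 488) and T cells (633 ± 73.4) were lowest.

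Fosb, which resembles Fos, was highest in pericytes with 2481, 1806, 2227 and 1609 CPM (mean 2031 ± 395). Venous ECs, microglia, arterial SMCs, arterial ECs and capillary ECs had means from 1815 to 1298 CPM and overlapped their neighbours. After a gap came ependymal cells at 670 ± 129, and T cells, choroid plexus cells and astrocytes had means of 226 to 257 CPM. Microglia were split by replicate number and not by condition, with 2183 and 2028 CPM in CSD 1 and HC 1 against 1022 and 865 in CSD 2 and HC 2.

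Fosl2, a Fos-family member known in T-cell and muscle biology, had another order. T cells had 207, 185, 237 and 198 CPM, from only 9, 14, 12 and 12 UMIs in 21, 19, 14 and 39 cells. Arterial SMCs had 208, 231, 174 and 179 CPM. Every library of these classes was above every library of the other classes, the next of which was arterial ECs at 73.7 ± 33.8 CPM. Choroid plexus cells were lowest at 4.74 ± 1.72.

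Jun, the founding member of its family, was highest, among the 10 classes, in microglia at 4138, 4067, 4301 and 4378 CPM (mean 4221 ± 143). Pericytes, venous, arterial and capillary ECs, ependymal cells and arterial SMCs followed with means from 3829 to 2371 CPM, each overlapping the next. Choroid plexus cells had 635 ± 165, astrocytes 395 ± 144 and T cells 225 ± 94.3 CPM. Border-associated macrophages, outside the 10 classes, were above microglia in every library at 4876, 7466, 4531 and 4418 CPM. T cells were thus at the bottom of the order for Jun but not for Junb, a Jun-family member with known roles in lymphocyte differentiation.

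Junb in T cells was 2341, 3057, 3260 and 2701 CPM (mean 2840 ± 405). That overlapped arterial SMCs (3656 ± 1087), microglia (3090 ± 366) and venous ECs (3046 ± 627). Astrocytes had 244 ± 73.9 and choroid plexus cells 178 ± 68.9 CPM. Jund, the most constantly expressed Jun gene, ran from 1873 ± 445 CPM in pericytes to 190 ± 60.6 in astrocytes, and only the astrocytes were separated from their neighbour in the order.

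Atf3, a stress-induced factor, was highest in microglia among the 10 classes. They had 3539, 2496, 3875 and 2900 CPM (mean 3203 ± 621), and their lowest library was above the highest of the next of these classes, arterial SMCs at 1157 ± 318. Border-associated macrophages had 1146, 2745, 1480 and 2643 CPM, and 2 of these libraries were above the lowest microglial one. Capillary ECs had 339 ± 118 and T cells 49.4 ± 44.8 CPM. Maff was low in all classes, from 129 ± 64.6 CPM in ependymal cells to 16.9 ± 15.4 in pericytes, with no gap in its order. Jdp2, a repressor of Jun dimers, was highest of the 10 classes in arterial ECs at 38.5 ± 24.4 CPM, below border-associated macrophages outside them at a mean of 92.3 CPM on 21 UMIs in all, and 5 of the 10 had a library without a UMI of it.

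**Figure D1:**
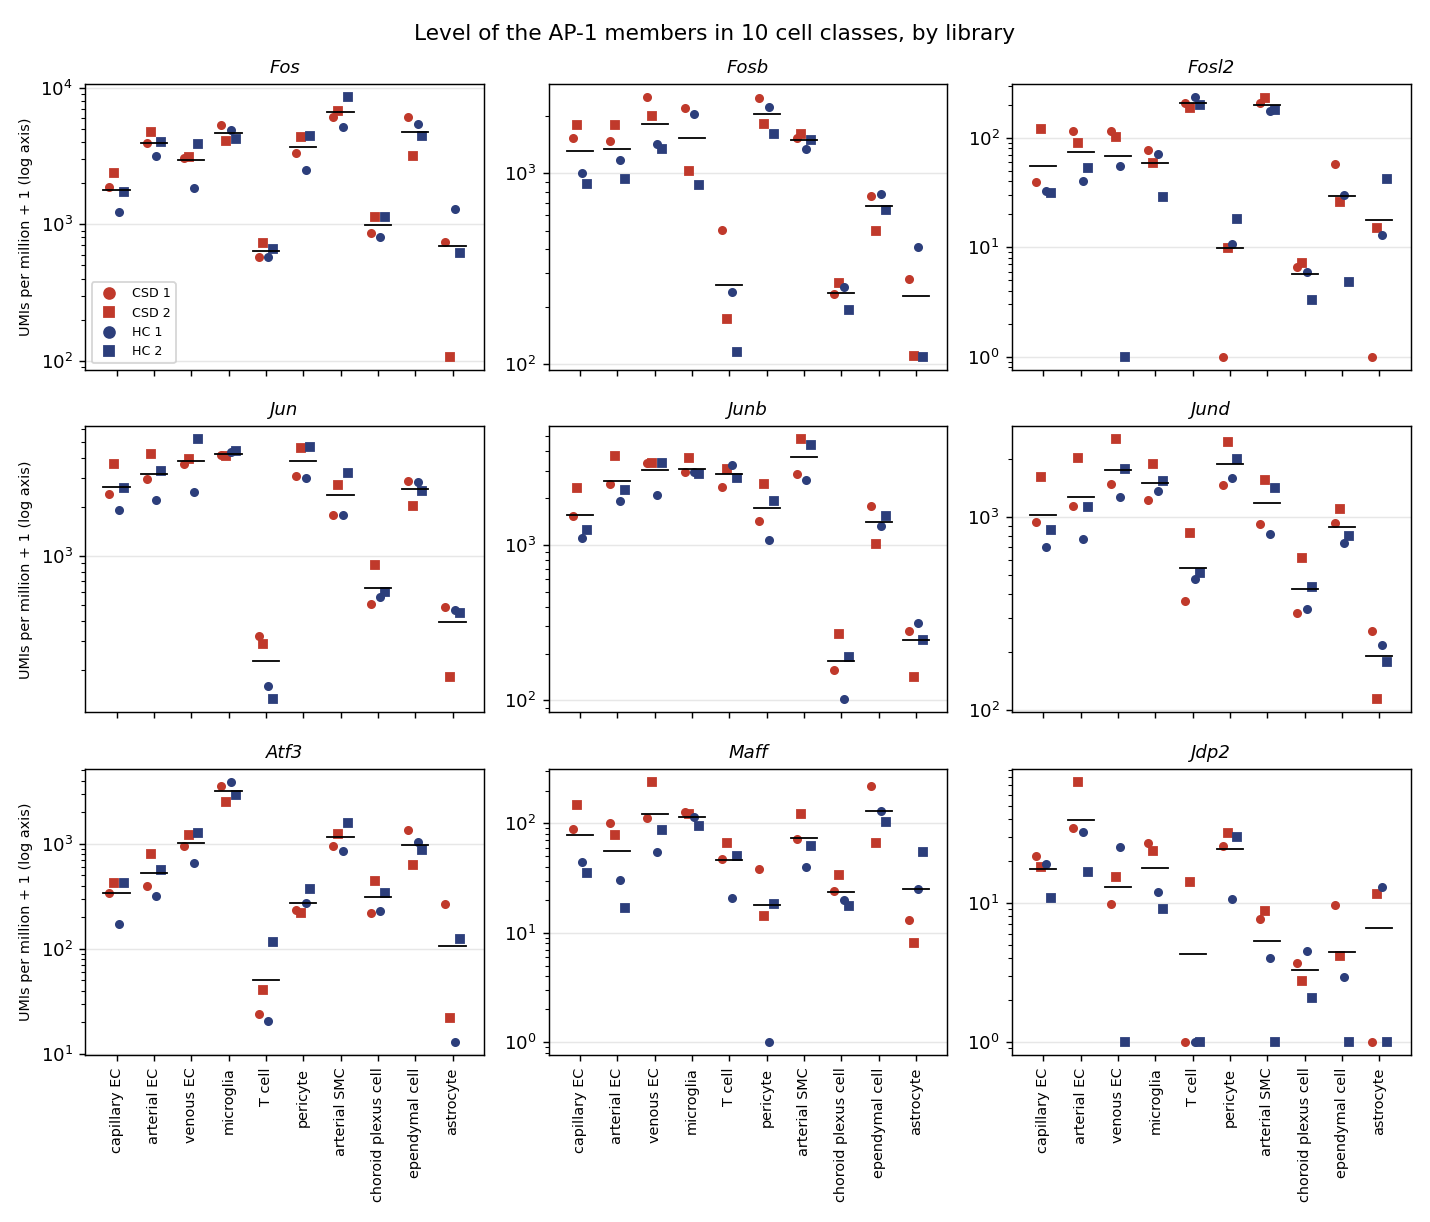
Level of each AP-1 member in 10 cell classes, in CPM plus 1 on a log axis; points are libraries (red, CSD; blue, HC; circles, replicate 1; squares, replicate 2) and bars are means of 4. Atf3 in microglia (mean 3203 CPM) lies above the other 9 classes plotted, and T cells are low in Jun (225 CPM) but not in Junb (2840 CPM).

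Free RNA gives a floor for such levels. In barcodes with at most 100 UMIs, Fos made up 687 to 828 CPM, Jun 541 to 664, Junb 433 to 527, Atf3 258 to 445 and Maff 16.8 to 26.5. Jun in T cells and astrocytes, Junb in astrocytes and choroid plexus cells, Atf3 in T cells, astrocytes and pericytes, Fosl2 in choroid plexus cells, and Jdp2 in choroid plexus cells and arterial SMCs were below the free RNA of their own library in all 4 libraries and were not read as expression. Astrocyte Fos rested on few cells, since 1 cell held 56 of the 61 UMIs of CSD 1 and 1 cell held 88 of the 108 of HC 1.

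Each class was compared with capillary ECs by edgeR's quasi-likelihood test with the library as a block and Benjamini-Hochberg adjustment. In microglia 6 of 9 members were higher, where 32.1% of genes were higher. Atf3 was 12.2-fold higher (log2 difference 3.60, SE 0.30, adjusted p = 1.24e-07 by edgeR) in 4 of 4 libraries, and Jun was 2.06-fold higher. The capillary Atf3 level was near that of free RNA, below it in CSD 1 and HC 1, so this fold is a ratio to a level not told apart from free RNA. In arterial SMCs 6 of 8 members tested were higher, against 30.1% of genes, with Fos 4.66-fold and Fosl2 4.72-fold. These shares of genes are large, so the size of a difference carries more than its call. In arterial SMCs the Fosb and Jund calls were each lost in 1 of 12 alternatives, with lowest log2 differences of 0.24 and 0.20. In CPM, Fosb was higher there in 3 of 4 libraries and Jund in 2.

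The endothelial classes were closer to each other. Arterial ECs had 7 of 9 members higher than capillary ECs, where 9.31% of genes were higher, and venous ECs 7 of 8, where 5.88% were. Fos was 2.27-fold higher in arterial ECs (log2 1.19, SE 0.08, adjusted p = 1.42e-52 by edgeR), and Jdp2 2.28-fold (adjusted p = 0.000944 by edgeR, but 0.187 without CSD 2). In venous ECs Atf3 was 3.11-fold and Junb 2.04-fold higher. Some of these calls were weak. In arterial ECs the Fosl2 call (log2 0.55) was lost in 7 of 12 alternatives, with 0.076 without CSD 1, the Jund call in 3 and the Jun call in 2, and all 3 were lost without HC 2. In venous ECs the Maff call was lost in 4 of 12 alternatives, among them without CSD 2 (log2 0.53) and without HC 1 (0.70). Maff in arterial ECs had a log2 difference of −0.40 (SE 0.20) that did not pass.

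T cells had 2 of 8 members higher (12.3% of genes), Fosl2 by 4.31-fold and Junb by 2.03-fold, and 5 lower (28% of genes). Jun was lower by a log2 difference of −3.47 (SE 0.26, adjusted p = 2.83e-39 by edgeR). In T cells Jun and Atf3, both lower, were below free RNA, as given above. The lower Jund call there (−0.77) was lost in 1 of 12 alternatives, which ranged from −1.03 to −0.073. Pericytes had 4 of 9 higher (18.6% of genes), among them Fosb by 1.63-fold, and 2 lower (21.5%), Fosl2 at −2.63 (SE 0.48) and Maff at −2.44 (SE 0.40) on the log2 scale. Without CSD 2 the Fosl2 difference was −1.49 with an adjusted p of 0.0726 by edgeR.

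Ependymal cells had 3 of 8 members higher (33.1% of genes), Fos, Atf3 and Maff, and 2 lower (33.7%), Fosb and Fosl2. The Maff call there was lost without CSD 1 (log2 0.60) and without HC 1 (0.53), and the Fosl2 call without CSD 2 (−0.15) and without HC 2 (−0.72). Choroid plexus cells had 7 of 9 lower (38.6% of genes) and 1 higher (39.8%), Atf3 at 0.73 on the log2 scale, which became −0.14 when class totals replaced TMM scaling. Fos did not pass there, at 0.01 (SE 0.12), though its CPM was lower in 4 of 4 libraries. All 8 members tested in astrocytes were lower (26.8% of genes), but with classes taken from clusters the Fos difference went from −1.55 to 0.41, Maff went from −2.21 to 0.048, and Fosb (−0.38), Jun (−0.16) and Junb (−0.21) no longer passed. The Fosl2 and Maff calls were also lost without CSD 2 (−0.85 and −0.77) and by DESeq2, and the Maff call with at most 10% mitochondrial UMIs (−1.22). Scaling by totals moved the members' median log2 difference by −0.86 in choroid plexus cells, −0.33 in microglia, −0.32 in arterial SMCs and −0.13 in T cells, and by less than 0.1 elsewhere. No member was lower than in capillary ECs in arterial ECs (8.32% of genes were), venous ECs (3.79%), microglia (30.2%) or arterial SMCs (28.5%), and none was higher in astrocytes (19.4%).

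To compare single cells at equal depth, every cell was thinned to 500 UMIs. Median depths before thinning ran from 988.5 UMIs in pericytes to 13453.5 in choroid plexus cells. A Fos UMI was found in 84.0% ± 3.87 of arterial SMCs (SD, n = 4), 70.5% ± 6.09 of microglia, 28.9% ± 6.78 of capillary ECs and 7.43% ± 3.66 of astrocytes. No class is known to lack Fos, so astrocytes, whose median of 1020 UMIs was near the 999.5 of capillary ECs, served as the low mark. They were picked as low in these same values, so that other classes lie above them is no test. Their low levels also depended on the gates, as given above. Without thinning the shares were 38.2% of capillary ECs and 85.2% of microglia.

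Junb was detected in 71.4%, 84.2%, 85.7% and 74.4% of thinned T cells in CSD 1, CSD 2, HC 1 and HC 2, and Jun in 19.0%, 21.1%, 7.14% and 5.13%. These shares rest on only 21, 19, 14 and 39 T cells. Astrocytes, the low mark, had Junb in 6.24% ± 4.36 of cells, and their Junb and Atf3 levels were below free RNA. Atf3 was found in 61.3% ± 7.49 of microglia, 35.6% ± 4.24 of arterial SMCs and 9.09% ± 2.41 of capillary ECs, against 1.77% ± 1.69 of astrocytes. For Atf3 the level and the share of cells gave the same order of these 4 classes.

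Fos was spread unevenly over capillary ECs. The 10% of cells with most Fos held 61.2%, 57.6%, 76.5% and 67.6% of the thinned Fos UMIs in CSD 1, CSD 2, HC 1 and HC 2, while in microglia the top 10% held 31.5% to 37.4%. Such a share is larger by construction for a gene found in fewer cells.

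Members were found together in cells. Of capillary ECs with a Jun UMI, 54.3%, 48.6%, 41.9% and 45.9% also had Fos, against 14.6%, 19.7%, 8.15% and 12.8% of those without Jun. With a Junb UMI the shares with Fos were 70.9%, 54.7%, 59.0% and 56.5%, against 16.6%, 21.2%, 8.71% and 15.7% without. In microglia Fos was found in 78.7% to 83.7% of cells with Jun and in 31.7% to 59.2% of cells without. The cells of a library are not replicates, so no test was made.

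**Figure D2:**
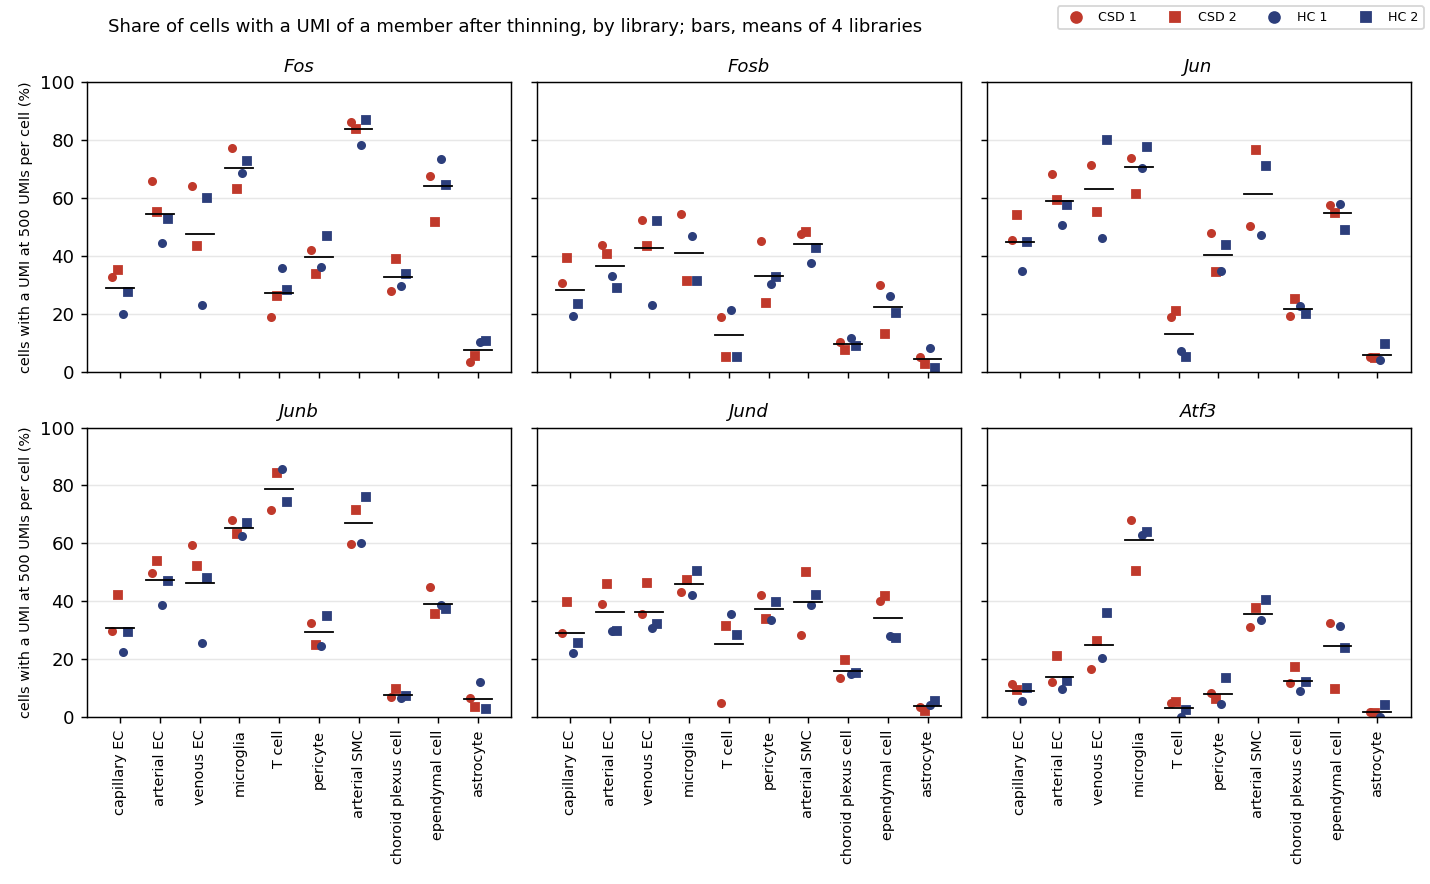
Percent of cells with at least 1 UMI of 6 members after thinning to 500 UMIs per cell, in 10 classes; points are libraries and bars their means. Fos ran from 84.0% of arterial SMCs to 7.43% of astrocytes, and Atf3 was found in 61.3% of microglia and 9.09% of capillary ECs.

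The question put to the conditions was whether CSD changed these genes, class by class. In capillary ECs Fosb and Maff rose in CSD. Maff had 93.2 and 147 TMM-scaled CPM in the CSD libraries and 44.0 and 34.2 in the HC libraries, from 81, 169, 36 and 42 UMIs in CSD 1, CSD 2, HC 1 and HC 2. Both CSD libraries were above both HC libraries. The means of 120 ± 38.3 and 39.1 ± 6.90 (SD, n = 2) differed 3.15-fold (log2 1.66, SE 0.25, adjusted p = 0.00788 by edgeR). Maff passed under all 13 alternatives, with log2 differences of 1.28 to 1.93.

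Fosb had 1612 and 1815 TMM-scaled CPM in CSD and 1006 and 868 in HC, again without overlap. The means of 1713 ± 144 and 937 ± 97.3 differed 1.83-fold (log2 0.87, SE 0.17, adjusted p = 0.0399 by edgeR). This call was less firm. Without HC 1 the adjusted p was 0.159 and without HC 2 it was 0.629, with class totals it was 0.0679 and with at least 1000 UMIs per cell 0.0844 (all edgeR).

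Thus 2 of 9 members were called higher in capillary ECs by edgeR, where 0.335% of 8667 genes were called higher. DESeq2 called 3 members, adding Junb, and 40 of 8667 genes in either direction. The other 7 members did not pass. Fosl2 had 40.3 and 120 TMM-scaled CPM in CSD and 31.8 and 30.2 in HC (log2 1.43, SE 0.37, adjusted p = 0.145 by edgeR), and without CSD 2 the log2 difference was 0.39. Junb had 1621 and 2332 against 1121 and 1243 (log2 0.74, SE 0.19, adjusted p = 0.145 by edgeR). Jund had 992 and 1635 against 703 and 854 (log2 0.75, SE 0.21). Without CSD 2 the log2 differences were 0.46 for Junb and 0.35 for Jund, and without CSD 1 they were 0.97 and 1.06.

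Fos had 1970 and 2386 TMM-scaled CPM in CSD and 1235 and 1714 in HC (log2 0.56, SE 0.19, adjusted p = 0.309 by edgeR). For Jun, Atf3 and Jdp2 the groups overlapped, with log2 differences of 0.45, 0.39 and 0.53. In all, 6 of 9 members had both CSD libraries above both HC libraries, as had 15.8% of genes. Such counts, here and below, use CPM before TMM scaling. An unadjusted p below 0.05 was reached by 7 of 9 members and by 8.92% of genes. The members' median log2 difference was 0.74 and that of all genes −0.01.

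Among the marker sums of other classes in these cells, some separated the conditions and most did not. The summed level of 7 oligodendrocyte markers, all found and none at 0 in every library, was 1216 and 1051 CPM in CSD and 710 and 825 in HC. In arterial ECs these markers summed to 1865 and 1239 CPM in CSD and 988 and 941 in HC. In venous ECs they summed to 1931 and 1496 against 1045 and 1013, and in microglia to 50.8 and 57.1 against 49.8 and 58.0. In capillary ECs the 8 venous markers summed to 274 and 260 CPM in CSD and 191 and 236 in HC. They include Lcn2, Ch25h, Vcam1 and Il1r1, genes of inflammation that were not counted when cells were gated. The 7 border-associated macrophage markers, 2 of them at 0 in every library, summed to 14.2 and 10.3 against 8.50 and 4.93. Arterial SMC markers went the other way at 208 and 119 CPM in CSD and 234 and 244 in HC, as did ependymal markers at 22.9 and 19.8 against 29.1 and 84.6, each list with 7 of 7 markers found and none at 0 in every library. The 10 microglial markers overlapped between groups at 116 to 255 CPM, and so did the 10 endothelial markers at 24369 to 28124. Overlap was also seen for the markers of arterial and fenestrated ECs, pericytes, astrocytes, choroid plexus cells and fibroblasts. The same held for those of oligodendrocyte precursors, neurons, T cells, B cells, and neutrophils or monocytes. Median mitochondrial shares of the capillary ECs were 7.42%, 8.71%, 8.12% and 6.14% in CSD 1, CSD 2, HC 1 and HC 2. The part of these markers in the AP-1 differences was not tested.

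The other endothelial classes come from the same libraries, so their values stand beside those of capillary ECs and are no independent repeat. In arterial ECs Maff had 107 and 84.4 TMM-scaled CPM in CSD and 31.3 and 16.8 in HC, from 41, 19, 14 and 3 UMIs (log2 1.85, SE 0.40, adjusted p = 0.0604 by edgeR). Fosl2 had 123 and 97.8 against 42.4 and 55.9 (log2 1.25, SE 0.34), and Fosb 1587 and 1946 against 1244 and 995 (log2 0.65, SE 0.22). No member passed there by edgeR (0 of 9, with 0.135% of genes called) or by DESeq2, and 5 had an unadjusted p below 0.05, as had 5.44% of genes. Both CSD libraries were above both HC libraries for 6 of 9 members and 16.3% of genes. Fos overlapped in CPM but not after TMM scaling, at 4266 and 5177 in CSD and 3372 and 4264 in HC.

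Venous ECs had few cells, 25 to 69 per library. Fosb had 2855 and 2265 TMM-scaled CPM in CSD and 1595 and 1493 in HC (log2 0.73, SE 0.22, adjusted p = 0.377 by edgeR). Maff had 126 and 273 against 60.3 and 94.8 (log2 1.47, SE 0.46). No member passed by edgeR (0 of 8, with 0.186% of genes called) or DESeq2, 3 had an unadjusted p below 0.05 (7.49% of genes), and 3 had CSD above HC without overlap, as had 17.5% of genes. The members' median log2 difference was 0.65 in arterial and 0.39 in venous ECs, and that of all genes 0.00 and −0.005.

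**Figure D3:**
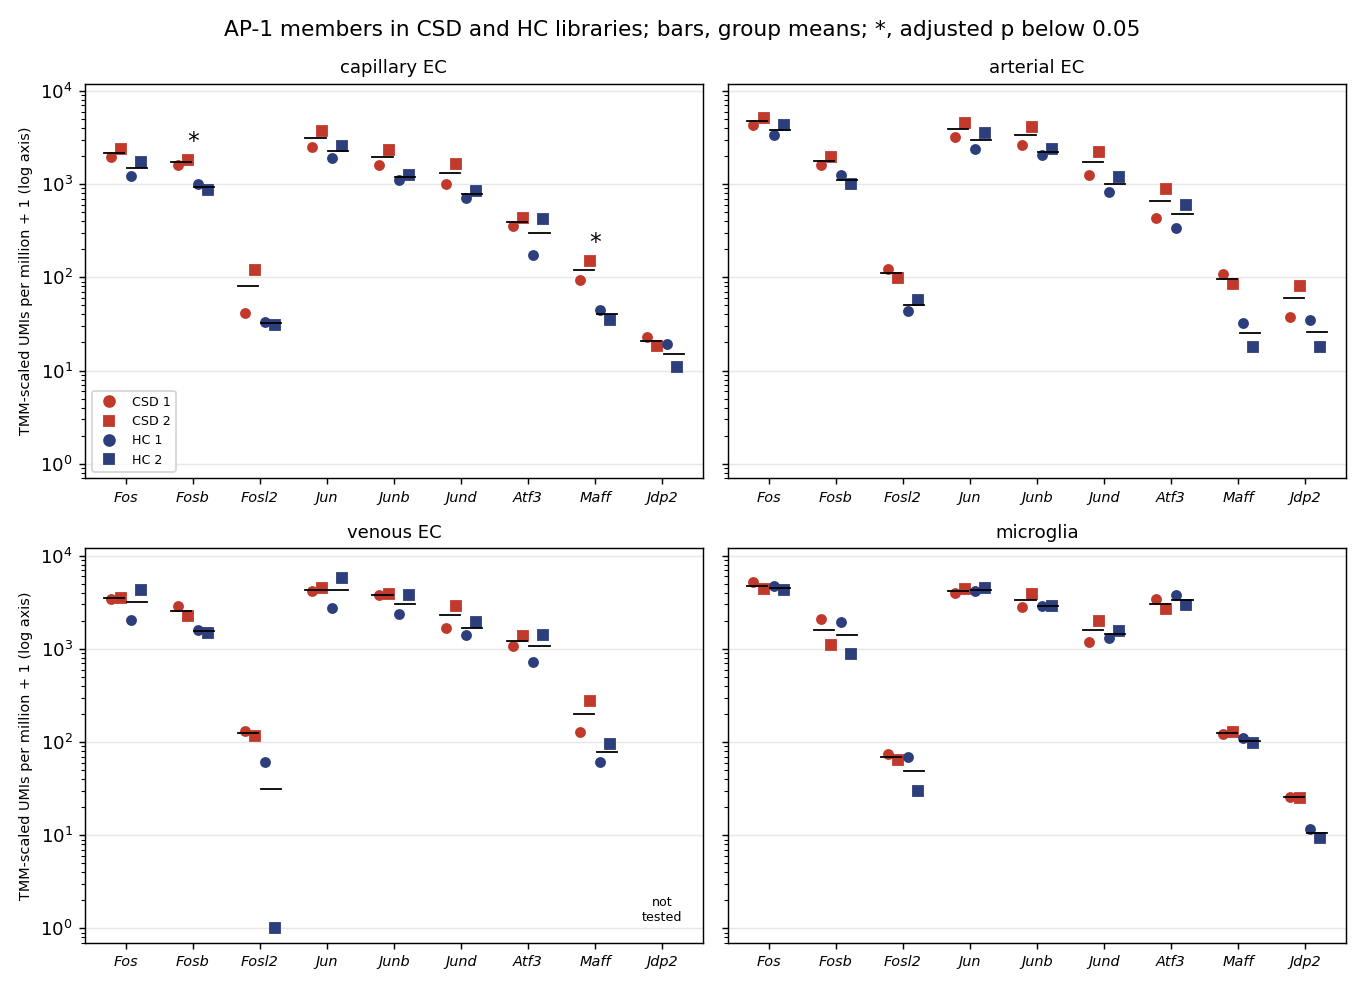
TMM-scaled CPM plus 1, on a log axis, of the 9 members in capillary, arterial and venous ECs and microglia; points are libraries, bars group means, and asterisks mark an adjusted p below 0.05 by edgeR. Fosb (1.83-fold) and Maff (3.15-fold) in capillary ECs carry asterisks, and Fos in microglia overlaps between groups.

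In microglia, the largest class, the members that were high differed little. Fos had 5219 and 4356 TMM-scaled CPM in CSD and 4785 and 4329 in HC (log2 0.07, SE 0.30), and Atf3 had 3424 and 2677 against 3758 and 2956 (log2 −0.14, SE 0.32). These standard errors leave room for a change in either direction. Jdp2, at 24.99 and 24.4 TMM-scaled CPM in CSD and 10.7 and 8.27 in HC, had a log2 difference of 1.37 (SE 0.27, unadjusted p = 0.00155, adjusted p = 1, both by edgeR). It was the 1 member of 9 with an unadjusted p below 0.05, as had 1.21% of genes. No member was called by edgeR or DESeq2, and edgeR called 0 of 9975 genes in microglia. CSD was above HC without overlap for 2 members (7.84% of genes) and below for 1 (13.6%). The latter was Jun, whose groups overlapped after TMM scaling, at 4003 and 4362 in CSD and 4171 and 4461 in HC.

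No member was called by edgeR or DESeq2 in the remaining 6 classes, where edgeR called 0.0693% of genes in choroid plexus cells, 0.358% in astrocytes and 0 in T cells, pericytes, arterial SMCs and ependymal cells. The members' median log2 differences were 0.28 in T cells, 0.15 in pericytes, 0.11 in arterial SMCs, 0.23 in choroid plexus cells, −0.06 in ependymal cells and −0.56 in astrocytes, and 6 to 9 members could be tested. An unadjusted p below 0.05 was reached by Jun in T cells (log2 1.13, SE 0.46), by Maff in arterial SMCs (0.93, SE 0.32) and by Maff in choroid plexus cells (0.56, SE 0.21), all by edgeR. Jun in T cells was below free RNA, as was Atf3 in pericytes (log2 −0.54, SE 0.27).

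**Figure D4:**
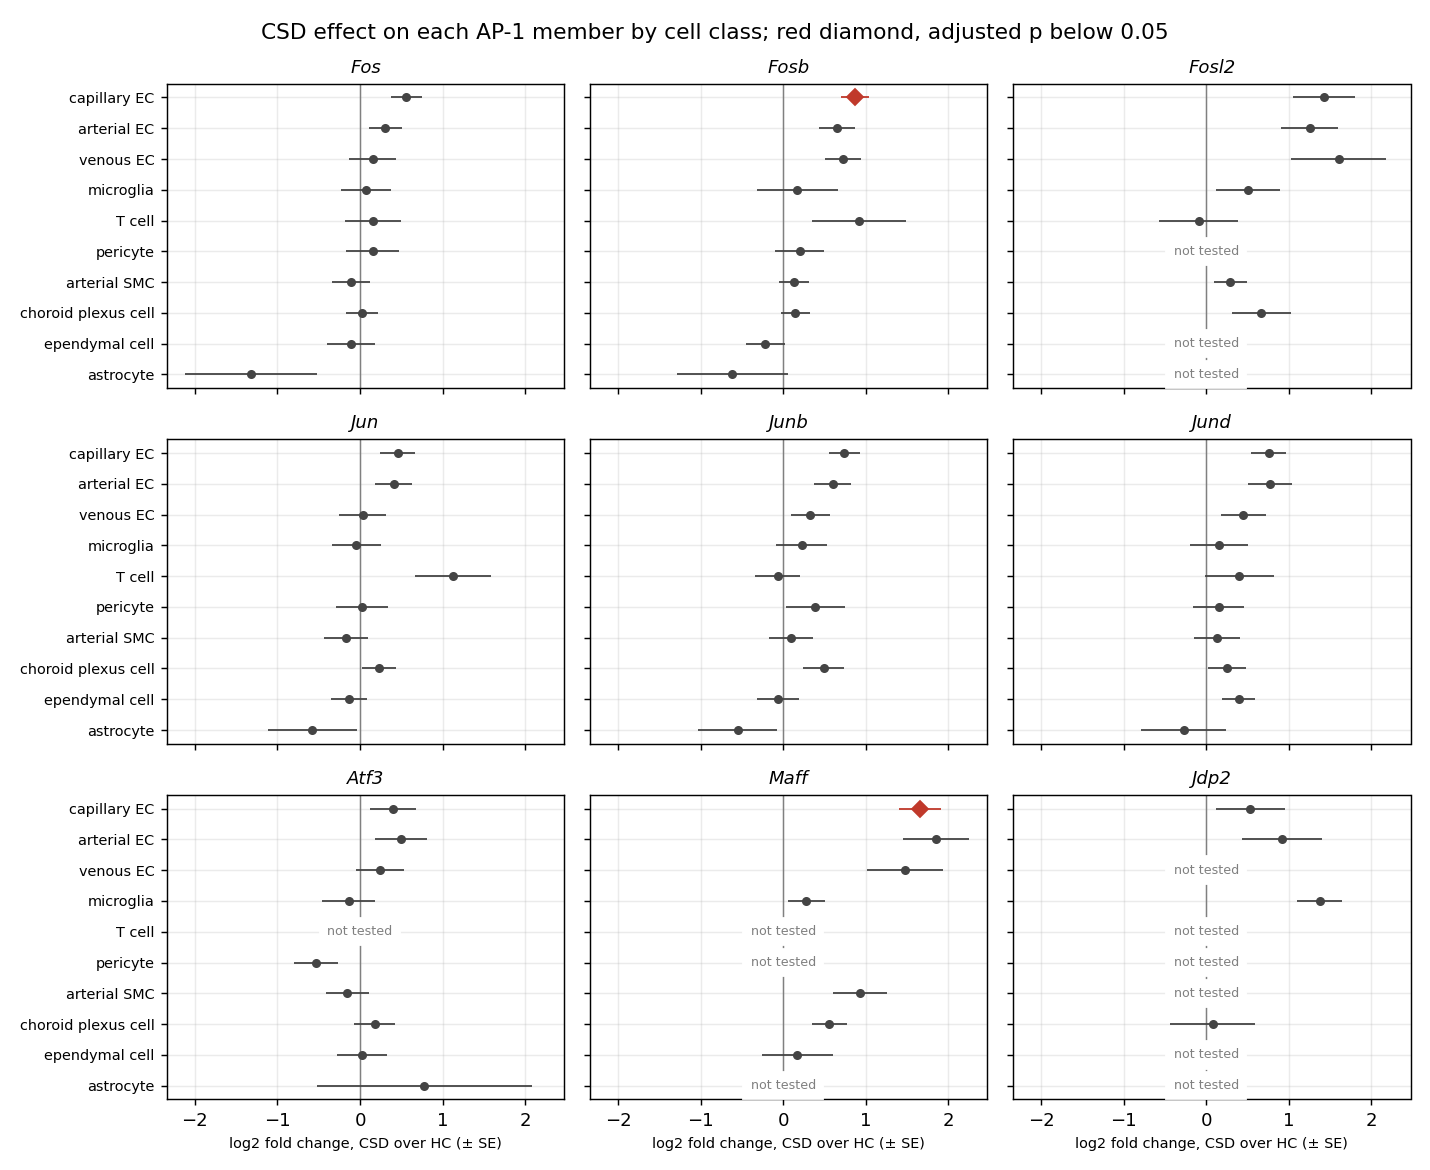
Log2 fold change of CSD over HC by edgeR for each member in each class, with a standard error worked out from its F statistic. Red diamonds mark an adjusted p below 0.05. The 2 diamonds are Fosb (0.87) and Maff (1.66) in capillary ECs, and the estimate farthest below 0 is Fos in astrocytes (−1.32).

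Whether the CSD effect differed between classes was tested as an interaction against capillary ECs. None of 80 pairs of member and class passed by edgeR or DESeq2, nor did any of 81 in a joint model of all classes. An unadjusted p below 0.05 was reached by 29 of 80 pairs by edgeR, where 4.13% of all tests of genes reached it, and by 15 of 81 in the joint model, where 3.48% did. Pairs share capillary ECs as the reference and are not independent. In the pairwise tests 0.0123% of genes were called for arterial ECs, 0.0853% for pericytes, 0.056% for arterial SMCs, 0.0741% for choroid plexus cells, 0.0207% for ependymal cells, 0.0918% for astrocytes and 0 for the others. In the joint model the shares were 0.0401% for microglia, 0.0201% for choroid plexus cells, 0.0602% for astrocytes and 0 for the others. The effect on Maff was thus called in capillary ECs and not in microglia, but the difference itself, −1.32 on the log2 scale (SE 0.36, unadjusted p = 0.00158, adjusted p = 1 by edgeR), did not pass.

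For Maff the differences from capillary ECs were −1.06 (SE 0.28) in choroid plexus cells and −1.51 (SE 0.42) in ependymal cells, with adjusted p of 0.232 and 0.276 by edgeR. For Fosb in ependymal cells it was −1.13 (SE 0.28, adjusted p = 0.127 by edgeR). In arterial ECs, by contrast, the Maff difference was 0.39 (SE 0.47). Asked whether the effect differed in any class, the joint model gave an unadjusted p of 0.00139 and an adjusted p of 0.447 for Maff, and called 0.11% of genes.

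The pair closest to the threshold was Fos in astrocytes, at −2.19 (SE 0.54, adjusted p = 0.0521 by edgeR). Its astrocyte levels were 1076 and 145 TMM-scaled CPM in CSD and 1896 and 900 in HC, and it rested on the few cells named above. Without CSD 1 the difference was −3.70, without CSD 2 it was −0.76, and with classes taken from clusters it was −0.12.

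Genes linked to AP-1 were described by list. Of 20 co-induced immediate-early genes such as Egr1 and Ier2, 19 were tested in capillary ECs and none was called by edgeR. Their median log2 difference was 0.56, and their summed level was 13226 and 15923 CPM in CSD and 9516 and 10090 in HC. In microglia all 20 were tested, none was called, and the median was 0.07. The summed level there was 21098 and 18828 CPM in CSD and 20307 and 17461 in HC. Arterial ECs had a median of 0.51 and venous ECs 0.29, each over 19 genes with none called. The remaining classes ran from −0.96 in astrocytes, over 9 genes, to 0.25 in pericytes, over 16.

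The genes upstream of AP-1, mitogen-activated protein kinases and serum response factors, showed a median of 0.08 over 13 of 15 tested in capillary ECs, with 0 called. Other basic leucine zipper factors had a median of 0.42 over 9 of 13, again with 0 called. Only 3 of 14 AP-1 target genes could be tested (median 0.03). Heat shock genes, known to be induced by dissociation and other stress, had a median of 0.68 over 11 of 11. Their summed level was 9060 and 6529 CPM in CSD and 5076 and 5675 in HC. This median was above 0 in every other class too, from 0.31 in arterial SMCs to 0.69 in arterial ECs, with 0.42 in microglia. Hspa1a, an inducible chaperone, was called in capillary ECs (log2 1.02, SE 0.19, adjusted p = 0.0260 by edgeR), and Hspa1b in choroid plexus cells (log2 1.16, SE 0.21, adjusted p = 0.0282 by edgeR). These genes are near-identical copies, so their counts may be split wrongly between them.

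The genes most like AP-1 across the 40 sums of 10 classes and 4 libraries were ranked by Pearson correlation with the sum of Fos, Fosb, Jun and Junb, among 6847 genes. The nearest were Btg2 (r = 0.95), Zfp36 (0.92), Ier2 (0.89), Dusp1 (0.88) and Midn (0.86), followed by Ywhaz, Morf4l1, Socs3, Arf1 and Myadm at 0.85 to 0.82. Btg2, Ier2 and Dusp1 are themselves immediate-early genes, and Zfp36 encodes a protein that speeds decay of such mRNAs. With each class mean taken off, the nearest were Ier2 (0.82), Btg2 (0.81), Dusp1 (0.74), Egr1 (0.73), Zfp36 (0.71), Socs3 (0.64), Ier5 (0.63), Dock6 (0.62), Hipk1 (0.59) and Cyr61 (0.59). The 40 points share libraries, classes and depth, so these values describe and do not test.

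The members outside that sum ranged widely. Jund correlated with it at 0.92, Atf3 at 0.71, Maff at 0.54 and Fosl2 at 0.35. With class means taken off the values were 0.66, 0.38, 0.51 and 0.10. Between pairs of members, Fos and Jun had r = 0.87 and 0.75 without class means, Junb and Jund 0.77 and 0.79, and Fosl2 and Jun −0.04 and 0.03.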

How the data were processed

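Raw UMI counts per gene and barcode, deposited by the authors for 4 libraries without cell calling, were used. The authors made them with Cell Ranger, version 4.0 and build GRCm38 (mm10) per the submitters' processing notes, and sources differ on the version. Cells with at least 500 UMIs, 250 genes and at most 25% mitochondrial UMIs were kept. A cell joined a class with at least 3 UMIs of 2 of its markers and 3 times the next class. Capillary ECs had at most 1 UMI of the arterial markers and at most 1 of the venous markers. Lcn2, Ch25h, Vcam1 and Il1r1, genes of inflammation, were left out of the venous count. Scrublet marked 205 cells as doublets (0.431% to 2.05% per library), which were kept except in an alternative.

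Counts were summed per library and class and tested two-sided with edgeR 4.0.16 (filterByExpr, TMM, quasi-likelihood, Benjamini-Hochberg over all genes tested, threshold 0.05) in R 4.3.3, and DESeq2 1.42.0 was an alternative. Each SE is the absolute log2 difference divided by the square root of edgeR's F statistic. The study tested cells, which are not replicates here. Other alternatives were totals in place of TMM, no filter, other cell limits, no doublets, classes from 32 Leiden clusters (scanpy 1.11.5), each library left out and a replicate block. Tests were checked on simulated counts with the same spread for all genes and changes only in well-covered genes. That check does not cover members with few UMIs or libraries of unequal quality. Likeness used log2(CPM + 10) for genes of at least 20 CPM on average, the 10 highest being named, and of each gene list up to 3 called genes per class were named. Members and lists were chosen with earlier results of these data known. Each library pools mice, so p-values of CSD against HC measure the spread between pools. Tests of levels and of differences in the effect between classes had the library as a block. Their p-values set the difference between classes against its variation over libraries. In all edgeR tests the spread of a gene is moderated toward that of all genes tested. With 4 libraries, very small p-values thus rest largely on this shared spread and not on the gene's own.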

Additional observations from a re-analysis of the deposited data

How the results depend on the processing

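The 60 calls between classes stayed between 53 and 63 over 12 alternatives. The 2 CSD calls became 1 with class totals in place of TMM, 1 with at least 1000 UMIs per cell and 8 without the filter on low counts, and leaving out 1 library gave 3 to 16, with 16 without CSD 1 and 4 without CSD 2. The 0 calls for differences of the CSD effect became 1 with class totals, 1 with at least 1000 UMIs and 2 with classes from clusters, and 0 to 8 with a library left out (8 without CSD 1, among them Fos, Fosb, Jun, Junb, Atf3 and Maff in ependymal cells). A left-out library leaves 1 sample in a group, assumed to vary like the other. Without thinning, Fos was found in 38.2% of capillary ECs and 85.2% of microglia. The cause of these shifts was not tested.

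With the replicate number as a block there were 7 calls, Fosb, Fosl2, Junb, Jund and Maff in capillary ECs, Fosl2 in venous ECs and Fos in astrocytes. Same-numbered libraries deviated together with r = 0.00 in capillary ECs and 0.55 in microglia. The labels name no shared batch, and with 2 pairs it was not decided whether the numbers pair the libraries. Under the block, calls over all genes went from 31 to 159 of 8667 in capillary ECs, from 7 to 57 of 3767 in venous ECs and from 4 to 8 of 1117 in astrocytes.

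Some log2 differences of CSD over HC that were not called changed sign. Jun in venous ECs became −0.0097 with class totals and −0.19 with clusters, and Fos in astrocytes 0.35 with clusters. With a library left out, the range was −0.082 to 1.18 for Atf3 in capillary ECs and −0.084 to 0.91 in arterial ECs. In venous ECs it was −0.29 to 0.77 for Fos, −0.40 to 0.65 for Jun and −0.18 to 0.76 for Atf3. In microglia it was −0.059 to 0.20 for Fos, −0.37 to 0.87 for Fosb, −0.11 to 0.026 for Jun, −0.026 to 0.44 for Junb, −0.28 to 0.49 for Jund and −0.32 to 0.055 for Atf3. Of the level differences that were called, Atf3 in choroid plexus cells became −0.14 with class totals, and with clusters astrocyte Fos became 0.41 and astrocyte Maff 0.048. Over all members, classes and alternatives, 84 of 998 values of the CSD effect changed sign, as did 65 of 1035 of its differences and 25 of 908 of the levels. Counted by pair of member and class, 44 of 77 CSD effects changed sign in at least 1 alternative. So did 29 of 80 of the differences and 14 of 76 of the levels. Depth limits members with few UMIs, as Jdp2 had 12 to 20 per library in capillary ECs.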
